A study of Mus musculus with 12 samples.

Results

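The 10 genes described here are clock genes: *Nr1d1*, *Nr1d2*, *Dbp*, *Tef*, *Hlf*, *Per2*, *Per3*, *Ciart*, *Arntl* and *Nfil3*. They were taken by symbol from a table of read counts for 49315 genes, in which each of the 10 was present once. All 10 passed the filter on low counts, which left 20290 genes for the comparison. The 10 genes were chosen with their difference between the groups already in view. Their differences between groups are therefore given as a description, and only measures that do not enter that difference were tested.

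The circadian clock is a transcription loop that runs in nearly every cell, including neurons and glia. The activators BMAL1, encoded by *Arntl*, and CLOCK bind E-box elements and switch on the genes of the Per and Cry repressors, whose proteins then shut the activators down. The same activators drive *Nr1d1* and *Nr1d2*, which encode the REV-ERB repressors, and the PAR bZIP activators *Dbp*, *Tef* and *Hlf*. REV-ERB proteins silence *Arntl* and *Nfil3* through RORE elements, so *Arntl* and *Nfil3* transcripts peak when *Nr1d1* and *Dbp* transcripts are low.

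Bulk RNA-sequencing was performed on brains of 12 male mice at 14 d post-stroke, 6 for each kind of bone marrow (BM). All recipients were irradiated CD45.1 Pep Boy mice on a C57Bl6 background with the head shielded, young adult at transplant and with intact *Tet2*, and all underwent transient middle cerebral artery occlusion some weeks after the transplant. In the WT group the minority CD45.2 donor cells were *Tet2*+/+, and in the *Tet2*-KO group they were *Tet2*-/-, while the majority of donor cells in both groups were CD45.1 *Tet2*+/+. Only a part of the blood cells of a *Tet2*-KO mouse thus lacked *Tet2*, and the recipient's own brain cells did not. Blood cells that entered its brain could include cells without *Tet2*. The treatment entry of the labels is the same for both groups, and the groups were taken from the titles, which give WT or *Tet2*-KO. The time of day at which the brains were collected is not given in the sources used here, and whether it differed between the mice was not tested.

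Total counts per library ranged from 12000261 to 15340787 in WT and from 12625047 to 21049763 in *Tet2*-KO. Expression is given as CPM, the read count of a gene scaled to a common library size with the TMM method. *Tet2* itself was at 126 to 147 CPM in WT and 117 to 137 CPM in *Tet2*-KO, which cannot check the labels because the recipient's own brain cells carry the intact gene. Neuron, astrocyte and oligodendrocyte markers were all detected, as brain tissue should show, and their values are given with the results they move with. Counts come from bulk tissue, in which fewer cells of a type and less RNA per cell cannot be told apart.

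RefSeq promoter windows of GRCm38.p6, from 250 bases before the annotated start to 50 bases after it, were on hand for 9 of the 10 genes (11 windows). They were searched on both strands for the E-box CACGTG, the D-box TTATGTAA or TTACGTAA, which the PAR bZIP factors and NFIL3 bind, and the RORE TAGGTCA or TAGGTTA, which ROR and REV-ERB proteins bind. Windows are shown for 2 genes of each phase with the match in capitals, 5′ to 3′ on the strand of the gene. They were picked because they held a match, and they do not show the phase of a gene. *Ciart* (chr3:95882179-95882478, minus strand) held 3 E-boxes, which begin at positions -116, -58 and -44 relative to the start at 0. *Per3* (chr4:151044616-151044915, minus strand) held a pair of D-boxes at -205 and -158. *Arntl* (chr7:113207261-113207560, plus strand) held ROREs at -6 and 30, and *Nfil3* (chr13:52980990-52981289, minus strand) held 1 RORE on the opposite strand, which reads TGACCTA, at -12. A match describes the letters of the window and does not show that a factor binds there.
Ciart: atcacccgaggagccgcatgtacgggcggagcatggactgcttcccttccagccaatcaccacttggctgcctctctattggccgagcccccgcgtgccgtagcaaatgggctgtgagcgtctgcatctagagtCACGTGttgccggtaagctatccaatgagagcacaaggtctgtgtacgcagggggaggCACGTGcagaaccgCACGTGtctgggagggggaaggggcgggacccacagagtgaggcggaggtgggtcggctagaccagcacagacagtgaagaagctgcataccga
Per3: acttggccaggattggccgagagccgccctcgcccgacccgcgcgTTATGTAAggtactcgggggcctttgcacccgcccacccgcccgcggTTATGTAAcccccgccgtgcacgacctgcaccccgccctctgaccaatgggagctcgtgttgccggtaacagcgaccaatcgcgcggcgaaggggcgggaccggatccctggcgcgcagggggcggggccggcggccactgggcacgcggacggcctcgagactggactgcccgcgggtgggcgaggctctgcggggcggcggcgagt
Arntl: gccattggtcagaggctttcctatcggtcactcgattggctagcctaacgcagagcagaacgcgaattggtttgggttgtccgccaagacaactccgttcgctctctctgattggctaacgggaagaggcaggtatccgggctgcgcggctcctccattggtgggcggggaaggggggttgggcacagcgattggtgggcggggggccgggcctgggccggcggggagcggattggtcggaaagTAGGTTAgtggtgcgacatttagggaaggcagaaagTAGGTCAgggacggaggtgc
Nfil3: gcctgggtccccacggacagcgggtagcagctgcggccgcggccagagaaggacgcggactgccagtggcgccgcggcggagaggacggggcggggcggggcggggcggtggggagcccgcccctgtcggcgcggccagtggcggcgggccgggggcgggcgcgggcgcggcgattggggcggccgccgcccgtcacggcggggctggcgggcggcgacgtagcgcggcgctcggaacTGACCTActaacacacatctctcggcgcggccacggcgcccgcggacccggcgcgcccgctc

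The E-box was found in 7.15% of 32851 windows of all genes, and among the described genes in the windows of *Ciart* and in both windows of *Tef* (3 of 11 windows). The D-box was found in 1.06% of all windows and among these genes only in that of *Per3*. The RORE was found in 4.00% of all windows and in 3 of the 11, both windows of *Arntl* and that of *Nfil3*. The windows of *Arntl* overlap and share the TAGGTTA match, so these windows stand for 2 genes. The windows of *Nr1d1*, *Nr1d2*, *Dbp* and *Hlf* held none of these letters, which says nothing of sites elsewhere in the genes.

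Per length of exon, the REV-ERB gene *Nr1d1* and the PAR bZIP genes *Hlf* and *Tef* had the highest levels of the 10 in WT brains. *Nr1d1* was at 34.9 ± 5.97 CPM per kb of exon (SD, n = 6), *Hlf* at 28.0 ± 2.22 and *Tef* at 26.2 ± 2.59. The ranges of these 3 genes over the 6 WT mice overlapped. *Nr1d2* followed at 14.7 ± 2.01 CPM per kb, *Dbp* at 9.31 ± 3.02, *Per3* at 8.15 ± 1.48 and *Per2* at 7.55 ± 1.49, and *Dbp*, *Per3* and *Per2* overlapped in range. *Arntl* was at 5.81 ± 0.775, *Nfil3* at 5.38 ± 0.734 and *Ciart* at 3.82 ± 1.25 CPM per kb, again with overlapping ranges.

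*Nr1d1* (chr11:98767932-98775333, minus strand, GRCm38) and *Nr1d2* (chr14:18204054-18239127, minus strand) encode the REV-ERB repressors, which link the clock to metabolism and to the silencing of *Arntl*. *Nr1d1* ranged from 93.0 to 142 CPM in WT with a median of 100.4, and from 133 to 191 CPM in *Tet2*-KO with a median of 162. WT replicate 6 was the highest WT mouse and lay inside the *Tet2*-KO range, and the other 5 WT mice lay below every *Tet2*-KO mouse. The log2 fold change of *Tet2*-KO over WT was 0.58 ± 0.11 (SE), and no *Tet2*-KO mouse lay below the WT mean. *Nr1d2* ranged from 71.5 to 97.0 CPM in WT (median 73.6) and from 86.7 to 110 CPM in *Tet2*-KO (median 103), with a log2 fold change of 0.34 ± 0.08. The groups overlapped in *Nr1d2* through WT replicates 5 and 6, at 89.5 and 97.0 CPM, and *Tet2*-KO replicates 1 and 4. The 3′ end of *Nr1d1* shares 263 exonic bases (8.55% of its exons) with *Thra* on the opposite strand, and the library kit does not mark strand, so reads in that stretch cannot be assigned to either gene. *Thra* was at 418 CPM in WT and 489 CPM in *Tet2*-KO, a log2 fold change of 0.23 ± 0.08.

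**Figure D1:**
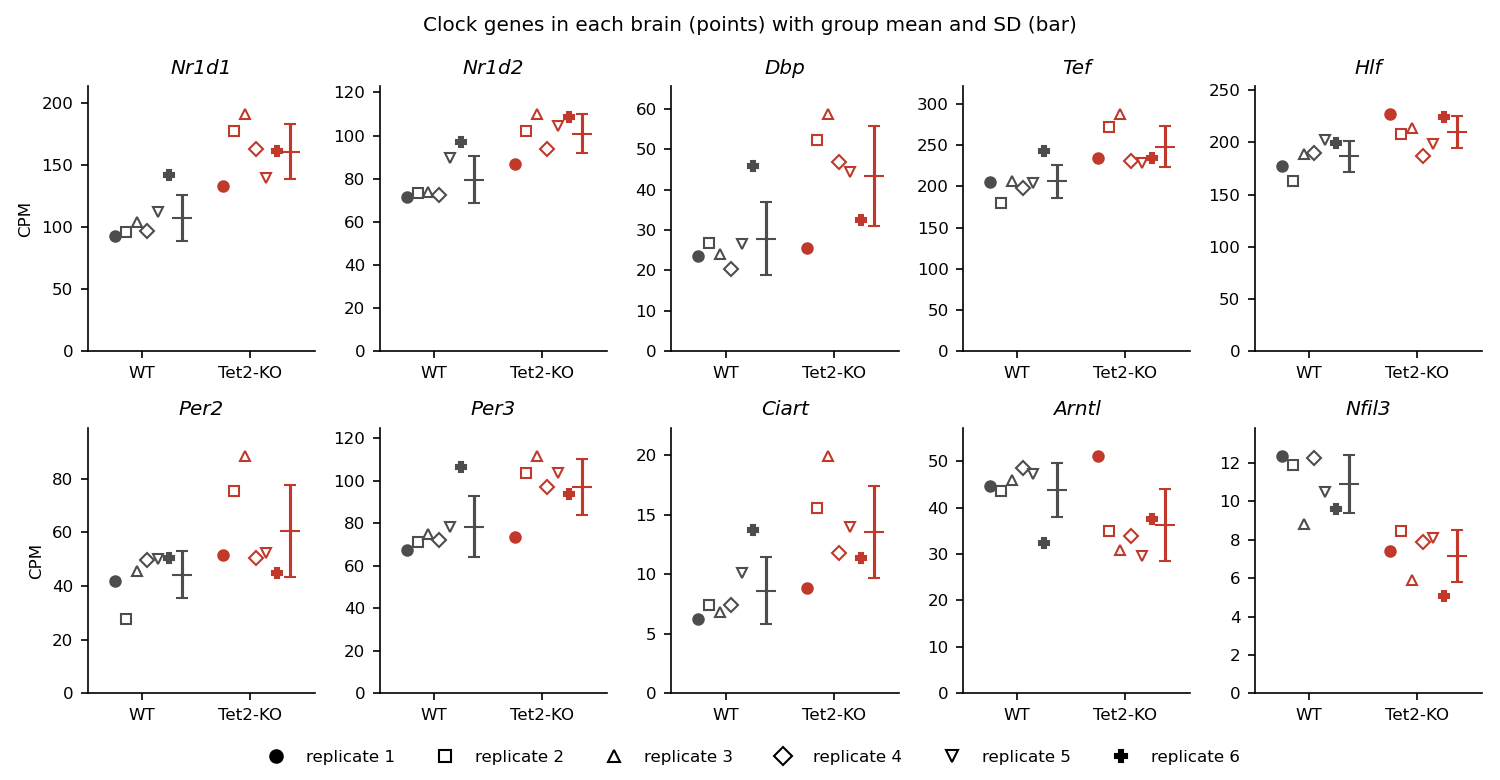
CPM of the 10 clock genes in each of the 12 brains, with the group mean and SD as a bar. Each point is a mouse, symbols mark its replicate number, and replicates 1 and 6 are filled because WT replicate 6 and Tet2-KO replicate 1 lie toward the other group in several genes.

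*Dbp* (chr7:45705088-45710203, plus strand), *Tef* (chr15:81802421-81826863, plus strand) and *Hlf* (chr11:90336536-90390895, minus strand) encode PAR bZIP transcription factors, which bind D-boxes and carry the rhythm to genes of metabolism and neurotransmission. *Dbp* ranged from 20.4 to 45.7 CPM in WT (median 25.4) and from 25.7 to 58.6 CPM in *Tet2*-KO (median 45.5). WT replicate 6 at 45.7 CPM stood apart from the other 5 WT mice, which reached 26.7 CPM, and *Tet2*-KO replicate 1 at 25.7 CPM lay among those 5. The log2 fold change of *Dbp* was 0.64 ± 0.24, 1.56-fold, and 5 of 6 *Tet2*-KO mice exceeded the mean of WT. *Dbp* shares 539 exonic bases (18% of its exons) with *Sphk2* on the opposite strand, which had a log2 fold change of -0.14 ± 0.06.

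*Tef* ranged from 180 to 242 CPM in WT (median 205) and from 229 to 287 CPM in *Tet2*-KO (median 234), with a log2 fold change of 0.27 ± 0.07. Only WT replicate 6 of the WT mice lay inside the *Tet2*-KO range of *Tef*. *Hlf* ranged from 163 to 203 CPM in WT (median 190) and from 187 to 227 CPM in *Tet2*-KO (median 211), with a log2 fold change of 0.17 ± 0.06. *Hlf* had the smallest difference of the 8 genes that were higher in *Tet2*-KO, and its groups overlapped over 4 WT mice.

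*Per2* (chr1:91415982-91459324, minus strand) and *Per3* (chr4:151003652-151044665, minus strand) encode period proteins, and *Ciart* (chr3:95878503-95882251, minus strand) encodes CHRONO, a further repressor of CLOCK and BMAL1. *Per2* ranged from 27.6 to 50.5 CPM in WT (median 47.6) and from 45 to 88.4 CPM in *Tet2*-KO (median 52.0). The log2 fold change of *Per2* was 0.46 ± 0.19, and it rested mostly on *Tet2*-KO replicates 2 and 3, at 75.4 and 88.4 CPM, and on WT replicate 2 at 27.6 CPM, since the other 9 mice lay between 42.0 and 52.5 CPM. *Per3* ranged from 67.5 to 106 CPM in WT (median 73.4) and from 73.4 to 111 CPM in *Tet2*-KO (median 100.3), with a log2 fold change of 0.31 ± 0.12. In *Per3* the 5 WT mice other than replicate 6 lay at or below 78.2 CPM, together with *Tet2*-KO replicate 1, and the other 5 *Tet2*-KO mice were at 93.9 CPM or more. *Ciart*, the least abundant of the genes that were higher in *Tet2*-KO, ranged from 6.24 to 13.7 CPM in WT (83 counts or more per library, median 7.42 CPM) and from 8.86 to 19.9 CPM in *Tet2*-KO (median 12.9). Its log2 fold change was 0.66 ± 0.22, 1.58-fold, the largest of the 10, and again no *Tet2*-KO mouse lay below the WT mean.

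*Arntl* (chr7:113207465-113314126, plus strand) and *Nfil3* (chr13:52967209-52981073, minus strand) are the genes of the opposite phase, which REV-ERB proteins repress. NFIL3 competes with the PAR bZIP factors for D-boxes in the clock, and in the blood lineage it is also needed for natural killer cells. *Arntl* ranged from 32.4 to 48.5 CPM in WT (median 45.3) and from 29.7 to 51.0 CPM in *Tet2*-KO (median 34.4), a log2 fold change of -0.27 ± 0.13. The groups overlapped because WT replicate 6 was the lowest WT mouse at 32.4 CPM and *Tet2*-KO replicate 1 the highest of all mice at 51.0 CPM. *Nfil3* ranged from 8.83 to 12.3 CPM in WT (median 11.2) and from 5.08 to 8.46 CPM in *Tet2*-KO (median 7.65), a log2 fold change of -0.60 ± 0.13 or 0.658-fold. *Nfil3* was the only one of the 10 whose groups did not overlap, and its counts were 66 to 189 per library.

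In the edgeR comparison, 8 of the 10 genes were higher in *Tet2*-KO at an unadjusted p below 0.05, a level that 10.8% of all tested genes passed in that direction. *Nfil3* was lower at that level, which 12.2% of all tested genes passed, and *Arntl* was not past it. With upper quartile scaling 3009 genes were higher and 2129 lower at that level, in place of 2201 and 2477. The groups did not overlap in 0.453% of all tested genes with *Tet2*-KO above WT and in 0.641% with *Tet2*-KO below WT. None of the 10 passed an adjusted p of 0.05, which 0.0246% of tested genes (5 genes) passed. By the DESeq2 Wald test 5 of the 10 passed it (*Nr1d1*, *Nr1d2*, *Tef*, *Ciart* and *Nfil3*), against 4.25% of the genes that test took in. The adjusted count depended on single mice, and without *Tet2*-KO replicate 5 edgeR passed 4 of the 10 genes and 2257 genes in all. Since the genes were chosen on this contrast, nothing is read from these counts. The median log2 fold change of all tested genes was 0.01.

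A list of 29 other clock genes was compared in the same fit. Of the 28 that could be tested, 5 were higher and 2 lower at an unadjusted p below 0.05, and none passed an adjusted p of 0.05 by edgeR, while 2 did by DESeq2 and 4 by limma-voom. Their median log2 fold change was 0.06, with 22 above 0 and 6 below. Over all tested genes 10.8% were higher and 12.2% lower at the unadjusted level, and 10619 lay above 0 and 9671 below. At the adjusted level DESeq2 passed 4.25% of the genes it took in. Of 20290 genes, limma-voom passed 591 higher and 1422 lower. The activator genes *Clock* and *Npas2*, partners of *Arntl*, had log2 fold changes of 0.04 ± 0.04 and 0.10 ± 0.08, and *Arntl2* one of 0.16 ± 0.08.

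Among the other repressors, *Per1*, the most labile of the period genes, had a log2 fold change of 0.40 ± 0.18, with an adjusted p of 0.221 by edgeR, and *Cry2* one of 0.20 ± 0.07, with an adjusted p of 0.135. *Cry1* differed little, by 0.04 ± 0.09. The log2 fold changes of *Bhlhe40* and *Bhlhe41*, which encode the DEC repressors, were 0.13 ± 0.10 and 0.02 ± 0.11. The ROR activators compete with REV-ERB proteins for the RORE. *Rora* had a log2 fold change of 0.19 ± 0.06 and *Rorb* one of 0.26 ± 0.08, both with an edgeR adjusted p of 0.121. Of the genes for kinases, ligases and turnover, the log2 fold change of *Usp2*, a deubiquitinase gene with a strong rhythm, was 0.18 ± 0.07 (edgeR adjusted p = 0.163), and *Csnk1d*, *Csnk1e*, *Fbxl21*, *Btrc*, *Gsk3b* and *Timeless* lay between -0.01 and 0.12.

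Of the rhythmic outputs, *Nampt*, which encodes the enzyme that limits NAD synthesis, had a log2 fold change of -0.16 ± 0.07 and *Lonrf3* one of -0.26 ± 0.12, with edgeR adjusted p of 0.211 and 0.203. *Vip*, a peptide of interneurons and of the suprachiasmatic nucleus, ranged from 5.45 to 8.89 CPM in WT and from 9.96 to 11.5 CPM in *Tet2*-KO, so that the groups did not overlap. *Vip* differed by 0.46 ± 0.10 on the log2 scale, with an adjusted p of 0.110 by edgeR. *Avp*, a peptide of the hypothalamus, differed by -0.02 ± 0.24, and *Wee1*, *Tspan4*, *Noct*, *Pdp1* and *Bmp2* had log2 fold changes between -0.22 and 0.22. *Prok2*, an output of the suprachiasmatic nucleus, had only 6 to 28 counts per library and did not pass the filter, and its mean was 1.35 CPM in WT and 0.609 CPM in *Tet2*-KO.

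**Figure D2:**
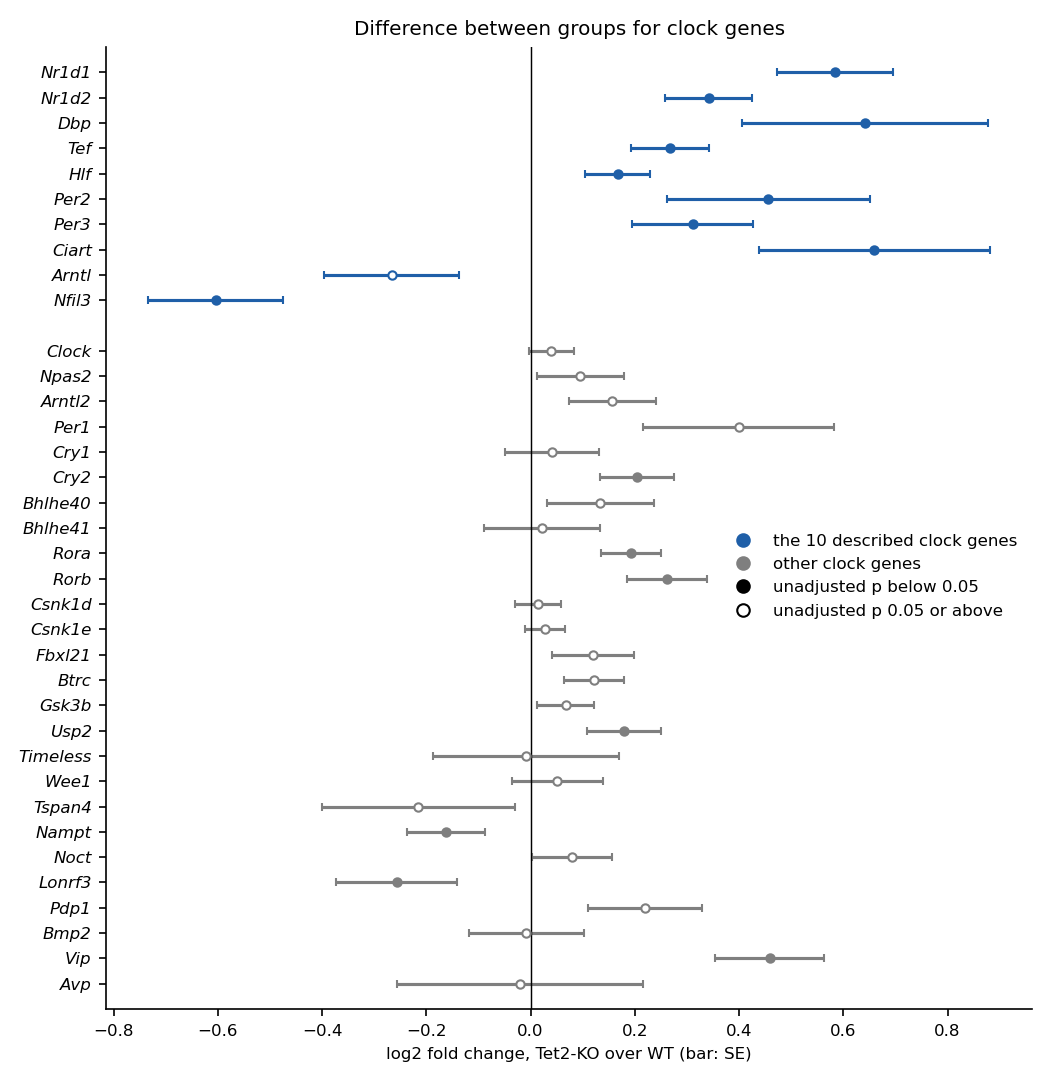
Log2 fold change of Tet2-KO over WT with its SE for the 10 clock genes (blue) and other tested clock genes (grey). Filled points had an unadjusted edgeR p below 0.05, and a reader should see the described genes spread from -0.60 to 0.66 while the others lie between -0.26 and 0.46.

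The mice of each group also differed among themselves. Deviations from the mean of a group do not enter the difference between the group means, but they set its SE, and single mice shifted the means. WT replicate 6 had the highest level of its group in 7 of the 8 genes that were higher in *Tet2*-KO, and the lowest *Arntl*. *Tet2*-KO replicate 3 had the highest level of its group in 7 of the 8. *Tet2*-KO replicate 1 had the lowest level of its group in 5 of the 8, and the highest *Arntl*. The labels give no day, litter or batch for any mouse. When each mouse was left out in turn, the log2 fold change ran from 0.54 to 0.84 for *Dbp*, from 0.27 to 0.42 for *Per3*, from 0.52 to 0.84 for *Ciart* and from -0.39 to -0.22 for *Arntl*. The highest of these values for *Dbp*, *Per3* and *Ciart* came without WT replicate 6 and the lowest without *Tet2*-KO replicate 3, and *Arntl* was farthest from 0 without *Tet2*-KO replicate 1.

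Within each group, the log2 CPM of *Nr1d1* was correlated with that of each of the other 9 genes by an exact two-sided permutation test over all 720 pairings of 6 mice, with Benjamini-Hochberg adjustment over the 18 relations. Of the 18 relations 13 were positive and 5 negative, 5 had an unadjusted p below 0.05 and 2 an adjusted p below 0.05. In WT, *Per3* rose with *Nr1d1* with r = 0.986 (exact permutation p = 0.00139, the smallest these pairings can give, adjusted p = 0.025) and rho = 1.00 (exact permutation p = 0.00278, adjusted p = 0.05). *Nr1d2* rose with *Nr1d1* in WT with r = 0.936 (exact permutation p = 0.00417, adjusted p = 0.0375) and rho = 0.943 (p = 0.0167, adjusted p = 0.10). Without WT replicates 5 and 6, the mice farthest from the median of *Nr1d1*, r was 0.921 for *Per3* and 0.734 for *Nr1d2*. By rho none of the 18 relations had an adjusted p below 0.05. Pairings of 6 mice allow no p of rho below 0.00278, which in a single relation adjusts to 0.05 and not below it. Even a perfect rank order, as in *Per3*, could thus not pass alone, and nothing is read from this count.

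Other relations in WT were also looked at without the same pair of mice, which leaves fewer mice over a narrower range of *Nr1d1*. The r of *Nr1d1* with *Ciart* was 0.945 (exact permutation p = 0.0167, adjusted p = 0.10; rho = 0.829, p = 0.0583, adjusted p = 0.131), and it was 0.182 without WT replicates 5 and 6. *Dbp* gave r = 0.908 (exact permutation p = 0.0389, adjusted p = 0.153) and rho = 0.543 (p = 0.297, adjusted p = 0.382), and its r was 0.0125 without these mice. *Arntl* gave r = -0.822 (exact permutation p = 0.132, adjusted p = 0.216) and rho = -0.0857 (p = 0.919, adjusted p = 0.974), and its r was 0.317 without them. *Tef* gave r = 0.850 (exact permutation p = 0.0486, adjusted p = 0.153) and rho = 0.543 (p = 0.297, adjusted p = 0.382). Its r was 0.307 without them. *Nfil3* gave r = -0.643 (exact permutation p = 0.154, adjusted p = 0.219) and rho = -0.771 (p = 0.103, adjusted p = 0.206). Its r was -0.945 without them, farther from 0. For *Hlf* r was 0.658 with all WT mice and 0.534 without them, and for *Per2* 0.491 and 0.321. Without WT replicates 5 and 6 the r with *Dbp*, *Tef* and *Ciart* thus fell, and that with *Arntl* changed sign. With so few mice left, these values cannot decide whether a relation holds. When each WT mouse was left out in turn, r ran from 0.809 to 0.980 for *Ciart* and from 0.412 to 0.955 for *Dbp*. It ran from 0.375 to 0.936 for *Tef*, from -0.918 to 0.445 for *Arntl* and from -0.970 to -0.562 for *Nfil3*.

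In the *Tet2*-KO group none of the 9 relations with *Nr1d1* passed. *Dbp* gave r = 0.774 (exact permutation p = 0.0764, adjusted p = 0.153) and rho = 0.943 (p = 0.0167, adjusted p = 0.10), and *Ciart* gave r = 0.792 (p = 0.0625, adjusted p = 0.153) and rho = 0.829 (p = 0.0583, adjusted p = 0.131). *Tef* gave r = 0.816 (exact permutation p = 0.0764, adjusted p = 0.153) and rho = 0.714 (p = 0.136, adjusted p = 0.245), and its r was 0.768 without *Tet2*-KO replicates 1 and 3, the mice farthest from the median of *Nr1d1* there. Without these mice r fell to 0.256 for *Dbp*, 0.151 for *Ciart* and -0.137 for *Per3*. No relation passed when any WT mouse was left out, and without *Tet2*-KO replicate 5 the number of relations that passed was 5.

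**Figure D3:**
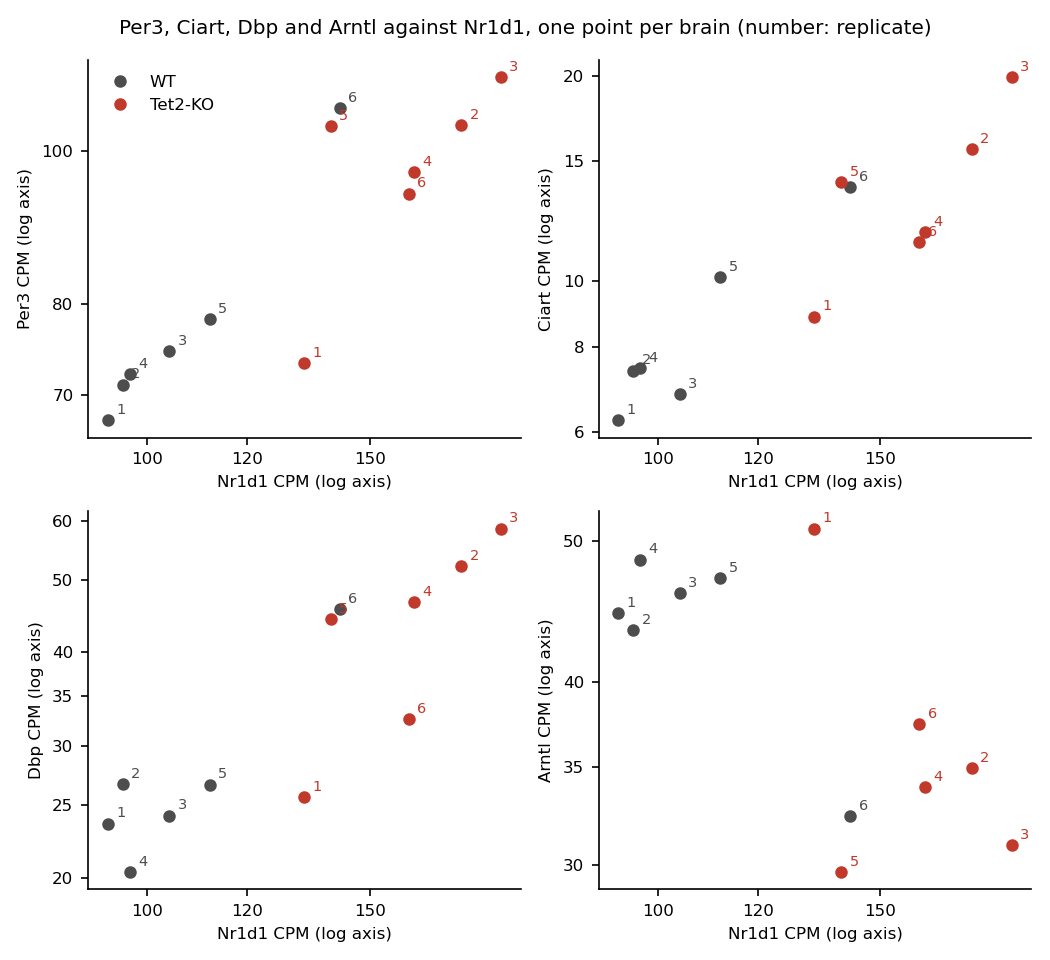
CPM of Per3, Ciart, Dbp and Arntl against CPM of Nr1d1 on log axes, with 1 point per brain and its replicate number. WT replicate 6 lies at 142 CPM of Nr1d1 among the Tet2-KO mice in all 4 panels, and Tet2-KO replicate 1 lies among the WT mice in Per3 and Dbp and above all of them in Arntl.

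With the mean of each group subtracted over all 12 mice, 27 of the 28 pairs among the 8 genes that were higher in *Tet2*-KO had a positive r, with a median of 0.692. These values are a description, since all pairs share the same 12 libraries. The highest r was that of *Per3* with *Ciart*, 0.925, and the only negative one that of *Dbp* with *Hlf*, -0.136. *Arntl* had a negative r with 7 of the 8 genes, with a median of -0.663 and a lowest value of -0.901 with *Per3*, and a positive one with *Hlf*, 0.249. *Nfil3* had a negative r with all 8, from -0.545 to -0.0721 with a median of -0.287, and an r of 0.11 with *Arntl*. WT replicate 6 had the least *Arntl* of its group (32.4 CPM) and the most *Dbp* and *Per3* (45.7 and 106 CPM). *Tet2*-KO replicate 1 had the most *Arntl* of its group (51.0 CPM) and the least *Dbp* and *Per3* (25.7 and 73.4 CPM). Among the other WT mice *Per3* did not fall as *Arntl* rose. In WT replicate 5 *Arntl* was at 47.2 CPM and *Per3* at 78.2 CPM, against 44.6 and 67.5 CPM in WT replicate 1.

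**Figure D4:**
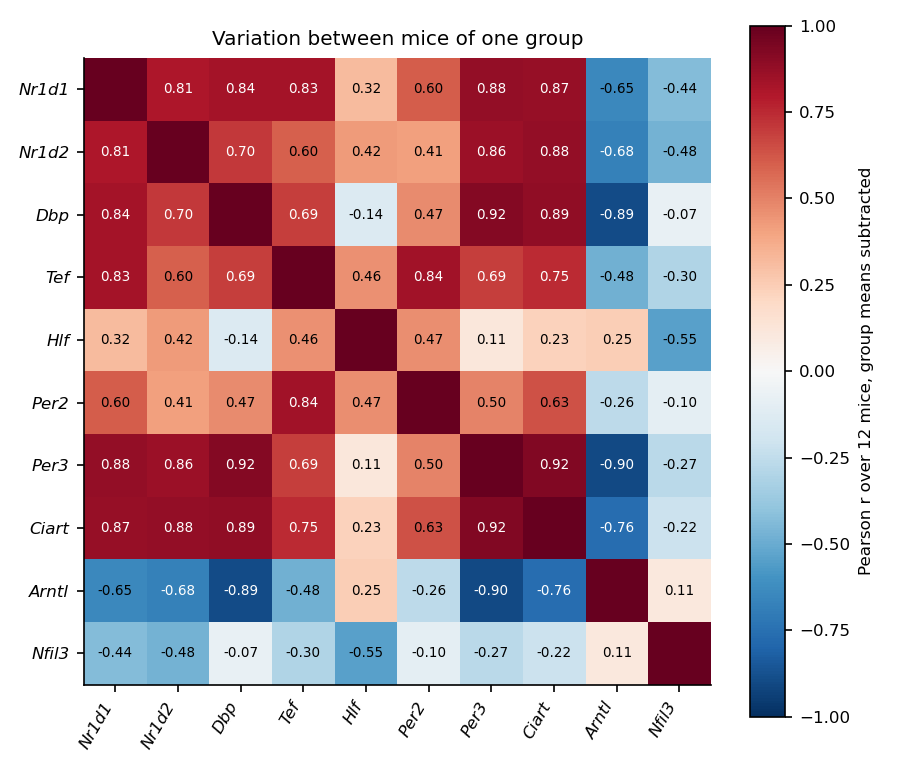
Pearson r between the 10 clock genes over 12 mice after each group mean was subtracted, from -1 (blue) to 1 (red). Nr1d1, Nr1d2, Dbp, Tef, Per3 and Ciart form a red block, Arntl is blue against most of them with -0.90 at Per3, and Hlf and Nfil3 are paler.

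By the same measure, *Nr1d1* was compared with all 20289 other tested genes. *Per3* had rank 3 from the top with r = 0.876, *Ciart* rank 4 with 0.875, and *Cipc*, which encodes a repressor that binds CLOCK, rank 5 with 0.870. Above them stood the unclassified transcripts *Gm37934* (r = 0.890) and *Gm38024* (r = 0.884), both at about 1 or 2 CPM, where counting error is large. *Dbp* ranked 15, *Tef* 17, *Nr1d2* 27, *Usp2* 58, *Per2* 343 and *Cry2* 565, while *Hlf* ranked 3305. From the bottom, *Arntl* ranked 237 and *Nfil3* 1391, and the lowest 3 genes were *Mir6999* (r = -0.894), *Tbx6* (r = -0.890) and *Specc1* (r = -0.885). The median r over all genes was 0.0131. *Cipc* itself differed little between the groups, with 97.6 CPM in WT and 103 CPM in *Tet2*-KO and a log2 fold change of 0.08 ± 0.04, and it was named by its rank, not taken from the clock list.

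Several marker lists moved with the groups in which the clock genes differed. Over all tested genes 10.8% were higher in *Tet2*-KO and 12.2% lower at an unadjusted p below 0.05. Of 12 neuron markers, 11 were higher in *Tet2*-KO at an unadjusted p below 0.05, none past an adjusted p of 0.05, with a median log2 fold change of 0.23, and *Rbfox3*, *Stmn2*, *Tubb3* and *Syt1* were among them. Their summed level was 5479 to 7889 CPM in WT and 7234 to 9842 CPM in *Tet2*-KO. Of 10 markers of infiltrating and activated myeloid cells, 9 were lower, among them *Lgals3*, *Ptprc*, *Itgal* and *Lyz2*, with a median log2 fold change of -1.72, and their sum was 1148 to 2953 CPM in WT and 78.4 to 1669 CPM in *Tet2*-KO. The 3 T and NK cell markers that could be tested, *Cd3e*, *Trac* and *Cd8a*, were lower too, while 5 of the 8 on that list were too low to test. Of 8 markers each, 0 microglial and 0 oligodendrocyte markers differed at this level. At the same level 1 astrocyte marker was higher (*Slc1a2*) and 3 endothelial and pericyte markers were lower (*Cldn5*, *Pdgfrb* and *Cdh5*). Over all tested genes, 10619 had a positive log2 fold change and 9671 a negative one. By sign alone, 7 of the 8 microglial markers had a negative log2 fold change, with a median of -0.21. So did 6 of the 8 astrocyte markers (median -0.11), unlike *Slc1a2*, and 7 of the 8 endothelial and pericyte markers (median -0.13). Of the oligodendrocyte markers 4 were positive and 4 negative (median 0.01).

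The myeloid markers varied between mice of the same group, and the clock genes stood beside them as follows. *Tet2*-KO replicate 5 had 1669 CPM of the myeloid markers, inside the WT range. Its *Nr1d1* at 140 CPM, *Ciart* at 14 CPM and *Nfil3* at 8.08 CPM lay inside the range of the other *Tet2*-KO mice, and its *Arntl* at 29.7 CPM below it. Its *Nr1d1* also lay inside the WT range, as did its *Dbp* (44.3 CPM), *Per3* (104 CPM), *Hlf* (199 CPM) and *Tef* (229 CPM, the lowest of its group). Its *Nr1d2* (104 CPM), *Per2* (52.5 CPM) and *Ciart* lay above the WT range, and its *Arntl* and *Nfil3* below it. *Tet2*-KO replicate 1 had the fewest myeloid markers, 78.4 CPM, and the highest sum of neuron markers, 9842 CPM, and its *Dbp*, *Per3* and *Ciart* lay inside the WT range and its *Arntl* above it. WT replicate 2 had the most myeloid markers of all mice, 2953 CPM, and the lowest *Hlf*, *Tef* and *Per2*, at 163, 180 and 27.6 CPM. In the *Tet2*-KO group *Hlf* was at 208 to 227 CPM in the 4 mice with 78.4 to 302 CPM of myeloid markers, and at 187 and 199 CPM in replicates 4 and 5, with 661 and 1669 CPM. Within the groups, the median r with *Nr1d1* was -0.0727 for the myeloid markers and 0.24 for the neuron markers. It was -0.261 for the endothelial and pericyte markers, which ran from -0.715 to 0.200. For astrocyte, oligodendrocyte and microglial markers it was 0.0558, 0.106 and 0.0368, and for T and NK cell markers -0.0964. The other clock genes were not set against these lists by this measure. The part of the neuron and myeloid markers in the differences of the clock genes was not tested. For *Nfil3*, which leukocytes also express, the part of the leukocyte markers was not tested beyond these values.

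**Figure D5:**
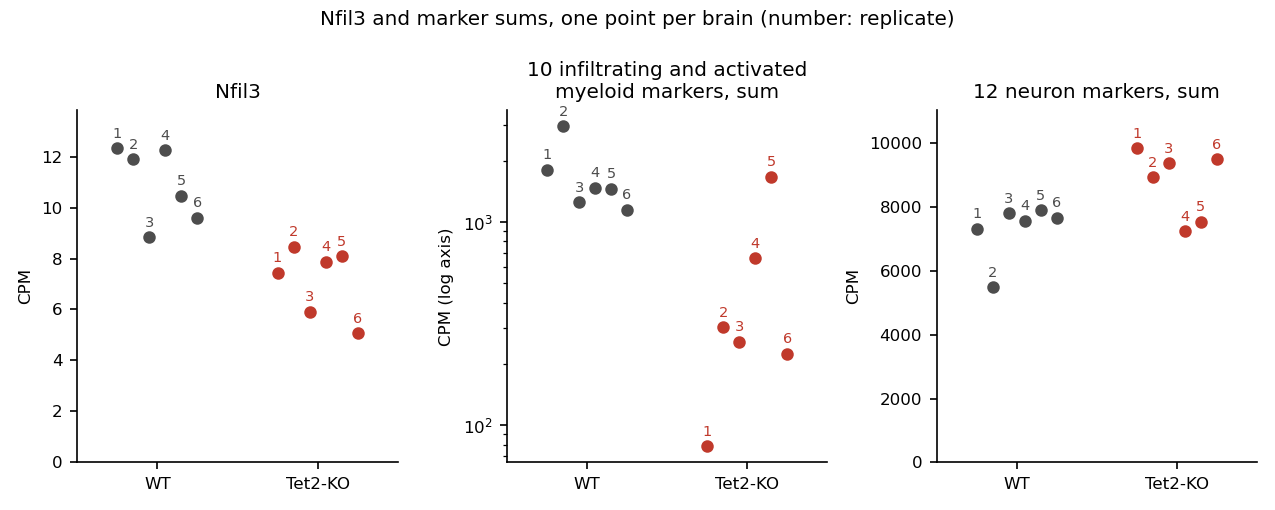
CPM of Nfil3, the summed CPM of 10 myeloid markers (log axis) and of 12 neuron markers in each brain, with replicate numbers. Nfil3 separates the groups without overlap, at 8.83 CPM or more in WT and 8.46 CPM or less in Tet2-KO, while Tet2-KO replicate 5 has myeloid markers at the WT level.

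Markers of brain regions bear on how the brains were dissected. Their counts stand beside 10.8% of all tested genes higher and 12.2% lower at an unadjusted p below 0.05. By sign alone, 10619 of all tested genes were positive and 9671 negative. Of 7 cerebellar markers that could be tested 1 was higher at an unadjusted p below 0.05 (*Neurod1*), with the summed level at 31.6 to 44.9 CPM in WT and 33.7 to 82.1 CPM in *Tet2*-KO. Of 8 striatal markers 1 was higher (*Drd1*), of 6 thalamic markers 1 was higher (*Rora*, which is also a clock gene) and 1 lower (*Prkcd*), of 7 hypothalamic markers 1 was lower (*Pomc*), and of 6 choroid plexus markers 1 was lower (*Kl*). By sign, all 7 cerebellar markers were positive (median log2 fold change 0.31), as were 7 of the 8 striatal markers (median 0.09). Of the 6 choroid plexus markers 5 were negative (median -0.22). Thalamic markers were 3 positive and 3 negative (median -0.0039), and hypothalamic ones 4 and 3 (median 0.08). In the cerebellar sum *Tet2*-KO replicates 2 and 4 lay above the WT range, at 64.9 and 82.1 CPM. The other *Tet2*-KO mice lay inside it. The part of brain region in the differences of the clock genes was not tested.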

How the data were processed

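RNA of brain tissue was depleted of ribosomal RNA and sequenced by the authors as paired reads. The paper names the tissue as whole brains in its results and as whole brain hemispheres in its discussion. Reads were trimmed with Trimmomatic 0.36 and aligned to mm10 with STAR 2.5.2b. They were counted per gene with featureCounts of Subread 1.5.2, for reads that map uniquely within exons. The deposited values are raw counts per gene. The strand setting and the annotation release are not given in the sources used here. Symbols, coordinates and exon lengths came from GENCODE M21 (GRCm38, the assembly of mm10).

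Computed here were the low-count filter (filterByExpr), TMM factors and a robust quasi-likelihood fit without covariates over the 12 mice in edgeR 4.0.16 (R 4.3.3). Its p-values were adjusted by Benjamini-Hochberg over all tested genes, with 0.05 as the threshold. DESeq2 1.42.0, which the study used, and limma 3.58.1 (voom) served as alternatives, beside other scalings, filters, a replicate block and leaving out each mouse. Log2 CPM for correlations used a prior count of 2. The fits were tested on simulated data. Each GEO sample is taken as 1 mouse. The clock genes, marker lists and alternatives were chosen with earlier results of these data known. Single values of 2 clock genes are not reported here. Named were the other listed clock genes, the 5 genes with the highest and 3 with the lowest r with *Nr1d1*, and up to 4 markers of each list by smallest p.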

Additional observations from a re-analysis of the deposited data

Results flagged for a closer look

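Values were looked at for single mice that stood far from the other 5 of their group, by Dixon's gap test over 78 groups of 6 mice, which chance alone meets in about 1 in 20 groups. It was met by 12. Among the 10 described genes, WT replicate 6 stood apart in *Dbp* at 45.7 CPM, in *Per3* at 106 CPM and in *Arntl* at 32.4 CPM, *Tet2*-KO replicate 1 in *Arntl* at 51.0 CPM, and WT replicate 2 in *Per2* at 27.6 CPM. Among the other clock genes, WT replicate 2 stood apart in *Cry2* at 97.2 CPM, in *Bhlhe41* at 101 CPM, in *Tspan4* at 30.8 CPM and in *Lonrf3* at 27.3 CPM. The remaining cases were *Csnk1e* in WT replicate 1 at 96.9 CPM, *Gsk3b* in *Tet2*-KO replicate 6 at 433 CPM and *Avp* in *Tet2*-KO replicate 4 at 19.1 CPM. WT replicate 2 also had the highest sum of myeloid markers, 2953 CPM, and the lowest of neuron markers, 5479 CPM.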

How the results depend on the processing

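The direction of the difference between groups held for all 10 described genes under all 8 alternative fits and when each of the 12 mice was left out. The count of genes past the adjusted threshold did not. Of all tested genes 5 passed by edgeR, 898 by DESeq2, 1464 by DESeq2 on the genes kept by the filter (an alternative chosen after seeing the data), 2013 by limma-voom, 44 without a filter, 0 with at least 10 counts in every library, 0 with a replicate block and from 0 to 2257 when a mouse was left out: 2257 without *Tet2*-KO replicate 5, 13 without WT replicate 6, 4 without WT replicate 2, 2 without WT replicate 5 and 0 when any of the other 8 was left out. Of the 10 genes 0 passed by edgeR, 5 by DESeq2 with and without the filter, 7 by limma-voom, 1 without a filter, 0 with the replicate block and 0 to 4 when a mouse was left out (4 without *Tet2*-KO replicate 5, 1 without WT replicate 6). Of the other clock genes 0 passed by edgeR, 2 by DESeq2, 3 by DESeq2 on the filtered genes, 4 by limma-voom and 0 to 4 when a mouse was left out (4 without *Tet2*-KO replicate 5), and 5 to 11 were past the unadjusted level (11 without *Tet2*-KO replicate 5, 7 with all mice).

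Replicate numbers do not pair the samples: same-numbered mice had correlations of -0.169 to 0.229 in their deviations from the group means, and 1 of 6 numbers matched best with itself. With the number as a block 8 of the 10 genes stayed past the unadjusted level, in place of 9.

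Small differences changed sign. *Timeless* was at 0.0335 by limma-voom and 0.0226 with upper quartile scaling, *Wee1* at -0.00097 by limma-voom, and with upper quartile scaling *Bmp2* was at 0.0248 and *Avp* at 0.0131. When each mouse was left out, the log2 fold change ranged from -0.0029 to 0.10 for *Cry1*, -0.0260 to 0.10 for *Bhlhe41*, -0.0061 to 0.0361 for *Csnk1d*, -0.15 to 0.0867 for *Timeless*, -0.00295 to 0.0886 for *Wee1*, -0.0589 to 0.0374 for *Bmp2* and -0.27 to 0.0900 for *Avp*. The number of relations with *Nr1d1* that passed stayed at 2 under other scalings and prior counts and was 0 to 5 when a mouse was left out (0 whenever it was a WT mouse, where 5 mice allow no p below 0.00833). The r of *Nr1d1* with *Arntl* ranged from -0.918 to 0.445 in WT and from -0.95 to 0.205 in *Tet2*-KO, and with *Hlf* in *Tet2*-KO from -0.331 to 0.358. The causes of these changes were not tested.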

Other observations

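Glucocorticoid targets are read beside clock genes because corticosterone has a daily rhythm and rises with stress. Of 10 such genes, 1 was higher in *Tet2*-KO at an unadjusted p below 0.05, *Tsc22d3* (37 CPM in WT and 45.9 CPM in *Tet2*-KO, log2 fold change 0.31 ± 0.11), and 2 were lower, *Errfi1* (40.3 and 34.7 CPM, -0.22 ± 0.07) and *Cdkn1a* (17.6 and 13.3 CPM, -0.41 ± 0.13). Over all tested genes 10.8% were higher and 12.2% lower at that level. None of the 10 glucocorticoid targets passed an adjusted p of 0.05 by edgeR. *Fkbp5*, which buffers the glucocorticoid receptor, was at 28.5 CPM in WT and 34.3 CPM in *Tet2*-KO, with a log2 fold change of 0.26 ± 0.13. Over the 12 mice with group means subtracted, *Fkbp5* had an r of 0.71 with *Nr1d1* and -0.873 with *Arntl*, and *Tsc22d3* one of 0.613 with *Nr1d1* and -0.712 with *Arntl*. The median r of the 10 genes with *Nr1d1* was 0.337, beside 0.0131 over all genes. These correlations share 12 libraries and are a description.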
